A study of Mus musculus with 6 samples.

Results

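Calcium handling and ion channel genes were examined in RNA that was immunoprecipitated from mouse left ventricle with an antibody to EZH2 or with normal IgG. The genes were 37 listed symbols for excitation-contraction coupling, calcium cycling, ion channels, pumps and adrenergic signalling, looked up by symbol among the 46072 genes of the deposited tables, and all 37 were found. The rule uses symbols and function and no measured value, but the list was drawn up with earlier results of these data known.

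In a ventricular myocyte, the action potential opens L-type calcium channels, and the calcium that enters opens the ryanodine receptor of the sarcoplasmic reticulum, which releases the calcium that drives contraction. Relaxation follows when the calcium pump SERCA2a returns calcium to the sarcoplasmic reticulum and the sodium-calcium exchanger extrudes the rest, while potassium currents repolarise the membrane. Beta-adrenergic signalling through cAMP and protein kinase A adjusts both phases, in part by relieving SERCA2a from its inhibitor phospholamban. EZH2 is the catalytic subunit of Polycomb repressive complex 2, which methylates histone H3 and binds many RNAs. In RNA immunoprecipitation, the RNAs that come down with the antibody are sequenced and set against those that come down with IgG.

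The mice were male, aged 10 weeks, and the labels give no genetic modification. Sham mice were infused with saline (the label of both Sham libraries reads Untreated), and the other groups received angiotensin II (AngII) from an implanted osmotic minipump for 4 h or 24 h, at a rate given as 1 mg/kg/min. Each group had 2 mice, and 2 independent RIP products were mixed into each library, which gave 1 anti-EZH2 and 1 IgG library per group and 6 libraries in all. The strain label was C57BL/6 for 4 libraries, C57BL/7 for the AngII 4 h anti-EZH2 library and C57BL/8 for the AngII 24 h anti-EZH2 library. The IgG library shares its group with the anti-EZH2 library, so the 2 libraries of a group are not replicates of the treatment. A difference between groups rests on 1 library a side and has no replicate check.

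Values are FPKM, which are scaled by transcript length and library depth and can be compared between genes. Depth inferred from the steps of low FPKM values was between 3800000 and 7950000 fragments per library, and between 15003 and 17685 genes were above 0. All 10 ventricular cardiomyocyte markers were above 0 in every library, with a summed FPKM between 6688 and 11668. The atrial marker Myl7 had an FPKM of 14.3 and 12.2 in the Sham IgG and anti-EZH2 libraries and of at most 0.491 in the 4 AngII libraries. The sum of 4 atrial markers was 44.0, 11.7 and 5.69 in IgG (Sham, AngII 4 h, AngII 24 h) and 29.6, 11.1 and 5.36 in anti-EZH2, and Sln was at 0 in every library. The sum of 7 skeletal muscle markers was 34.7 in the AngII 24 h IgG library, all of it from Mylpf, and at most 1.17 in the others. Mitochondrially encoded genes held 31.3% of the FPKM of the AngII 24 h anti-EZH2 library and between 6.72% and 13.9% in the others. These are shares of unlike totals, as all FPKM summed to 1066359 in that library and to between 1713601 and 2166093 in the others. The sums of endothelial, fibroblast, smooth muscle and leukocyte markers were lowest or near lowest in the AngII 24 h anti-EZH2 library. The cardiomyocyte sum was near its lowest there too (6857). Single markers did not all follow, as Egfl7 (16.0) and Cd14 (0.916) were highest in that library. Over the libraries, endothelial sums were between 64.6 and 109 and fibroblast sums between 49.4 and 73.7. Smooth muscle sums were between 2.40 and 7.54 and leukocyte sums between 12.9 and 21.6. The sum of 5 erythroid markers was between 587 and 1454, highest in the AngII 24 h IgG library. The 4 adipocyte markers summed to at most 0.754. The part of these differences in the results below was not tested, and in such tissue fewer cells of a type cannot be told apart from less RNA per cell.

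The calcium uptake genes led the levels. Atp2a2, which encodes SERCA2a, had a mean FPKM of 366 and ranked 29 of 21517 protein-coding genes. Pln, which encodes phospholamban, ranked 49, S100a1, a calcium-binding partner of SERCA2a and the ryanodine receptor, ranked 108, Fxyd1, which encodes the sodium pump regulator phospholemman, ranked 123, and Casq2, the calcium buffer of the sarcoplasmic reticulum, ranked 174. Mean FPKM was at least 100 for 3 members, between 10 and 100 for 13, between 1 and 10 for 18 and under 1 for 3. The low members were Kcnd2, a subunit of the transient outward potassium channel, Adrb1, the beta-1 adrenergic receptor, and Fkbp1b, the ryanodine receptor partner calstabin-2. Fkbp1b was listed at 0 in 5 libraries and at 0.484 in the AngII 4 h anti-EZH2 library, and the other 36 members were above 0 in every library. Ratios below are therefore over 36 members.

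**Figure D1:**
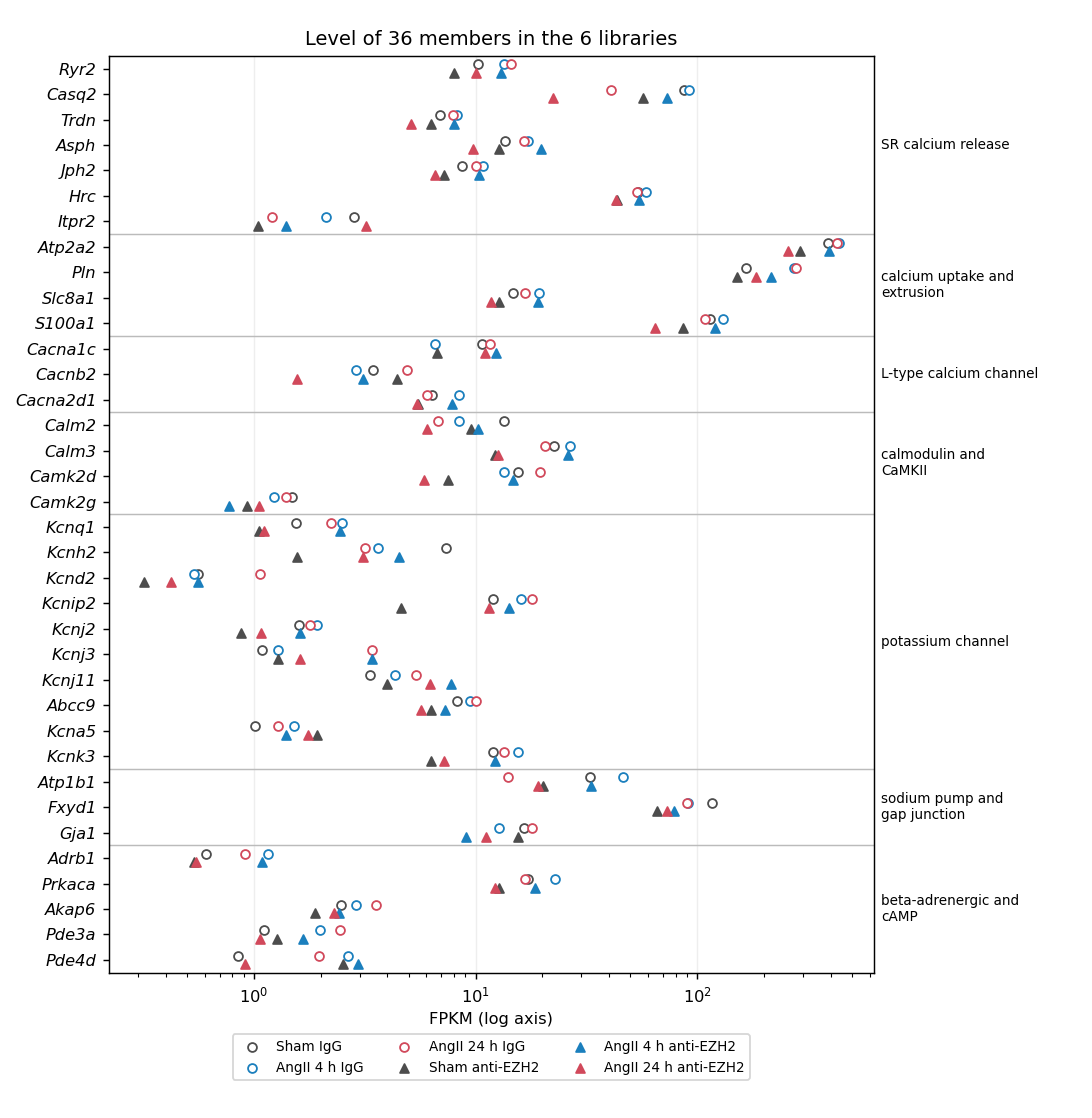
FPKM (x axis, log scale) of 36 members (rows, grouped by role) in the 6 libraries, with open circles for IgG, filled triangles for anti-EZH2 and colours for Sham, AngII 4 h and AngII 24 h. Atp2a2 and Pln lie above all other members in mean FPKM, and Casq2 is lowest in the 2 AngII 24 h libraries, at 41.0 and 22.3.

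Pln has the shortest reading frame of the 37 members. It spans 159 bases with its stop codon and is shown because Pln is a member whose direction after 24 h differs between the deposited forms of the data (described further down). It lies in 1 exon on the plus strand at chr10:53343864-53344022 (GRCm38, the assembly of mm10, GENCODE M21), inside a longest coding mRNA of 2334 bases of which 1968 are 3′ untranslated. Capitals mark the start and stop codons, and 44.7% of the frame is G or C against 38.6% of the mRNA.
Pln: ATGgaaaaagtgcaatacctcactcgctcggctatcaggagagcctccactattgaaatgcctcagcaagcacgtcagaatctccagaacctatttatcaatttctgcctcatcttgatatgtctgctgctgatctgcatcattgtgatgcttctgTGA

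Polycomb repressive complex 2 is known to favour RNA with runs of G, so the longest coding mRNA of each member was searched on its own strand for 4 runs of at least 3 G separated by 1 to 7 bases. The pattern was present in 9 of 37 members (24.3%) and in 1510 of 6879 protein-coding genes with a mean FPKM of at least 1 (22.0%). The members with it were Jph2, Itpr2, Slc8a1, Calm3, Kcnh2, Kcnip2, Kcnj11, Atp1b1 and Prkaca. Sites of 3 of these members are shown, because Kcnh2 and Itpr2 had the lowest anti-EZH2/IgG ratios in Sham and Jph2 has the highest GC content of the set, with the runs of G in capitals. The Kcnh2 sites lie at chr5:24351321-24351339 (5′ UTR) and chr5:24322123-24322149 (coding exon), the Itpr2 site at chr6:146502098-146502125 (5′ UTR) and the Jph2 site at chr2:163337326-163337351 (3′ UTR), all on the minus strand of GRCm38.
Kcnh2, 5′ UTR: GGGccGGGccGGGccaGGG
Kcnh2, coding: GGGGacagccGGGaGGGccatGGGGGG
Itpr2, 5′ UTR: GGGGacgcagaGGGctcgcGGGccaGGG
Jph2, 3′ UTR: GGGGGaGGGGtgcGGGGGGGGaGGGG
The median anti-EZH2/IgG ratio of members with and without the pattern was 0.610 and 0.766 in Sham, 0.963 and 0.931 after 4 h, and 0.726 and 0.598 after 24 h. Members with the pattern were lower in Sham and higher in the other 2 groups, as a description with no test, and a match is not a binding site.

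The first comparison asked whether member mRNAs were enriched with anti-EZH2 over IgG across the 3 groups. In limma on log2(FPKM + 0.5), with the group as a block, 0 of 34 members with a mean FPKM of at least 1 passed an adjusted p of 0.05 (Benjamini-Hochberg over 8637 genes) in either direction. Of all genes tested, 2 were called higher (0.0232%) and 0 lower (0%), and 624 genes, of which 0 were members, had an unadjusted p under 0.05. The member with the lowest p was Kcnk3, a potassium channel of the resting membrane, at a log2 difference of -0.69 (SE 0.28, unadjusted p = 0.0643, adjusted p = 0.675 in limma). Kcnk3 was lower with anti-EZH2 in 3 of 3 groups in the separate table of each library. In the table of the whole series its ratio after 4 h was 1.06. Casq2 had a log2 difference of -0.60 (SE 0.29) and Atp2a2 one of -0.43 (SE 0.32), with an adjusted p of 0.677 in limma for both. The median log2 difference of the members was -0.34 and 29 of 34 were below 0. After each library was centred on its median protein-coding gene, the median was -0.06, with 21 below 0 and 13 above, so most of the shift was shared with other genes.

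Within a group, a ratio past 2-fold between the 2 libraries was counted, with no test. In Sham, 1 of 36 members was higher with anti-EZH2 (2.78%, against 10.0% of protein-coding genes with a mean FPKM of at least 1) and 4 were lower (11.1%, against 21.2%). The median member ratio was 0.761 and that of protein-coding genes 0.795. After 4 h of AngII, 1 member was higher (9.56% of protein-coding genes were) and 0 were lower (13.0%), with medians of 0.933 and 0.911. After 24 h, 1 member was higher (7.32%) and 7 were lower (19.4% of members, against 31.8%), with medians of 0.641 and 0.665. In all 3 groups the member median was close to that of protein-coding genes, and the shares past 2-fold were below the background. Relative to the protein-coding median, the counts of higher and lower members were 2 and 3 in Sham (15.2% and 13.4% of protein-coding genes), 2 and 0 after 4 h (11.4% and 10.6%) and 3 and 2 after 24 h (15.4% and 15.8%).

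The genes of calcium uptake and extrusion stayed close together in this comparison, and those of calcium release did so apart from Itpr2. Among 7 genes of calcium release, which include Ryr2 (the ryanodine receptor), Trdn (triadin), Asph (which encodes junctin among its products), Jph2 (junctophilin-2) and Hrc (a luminal calcium-binding protein), the ratio was between 0.368 and 0.941 in Sham. The lowest of them was Itpr2, an inositol trisphosphate receptor, and after 24 h Itpr2 was also the highest, at 2.65, while the median of the 7 genes was 0.654. The 4 genes of uptake and extrusion were between 0.752 and 0.909 in Sham, between 0.791 and 0.993 after 4 h and between 0.598 and 0.704 after 24 h. These 4 genes thus had a narrow spread in every group, and their ratio was lowest after 24 h, as was the protein-coding median.

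**Figure D2:**
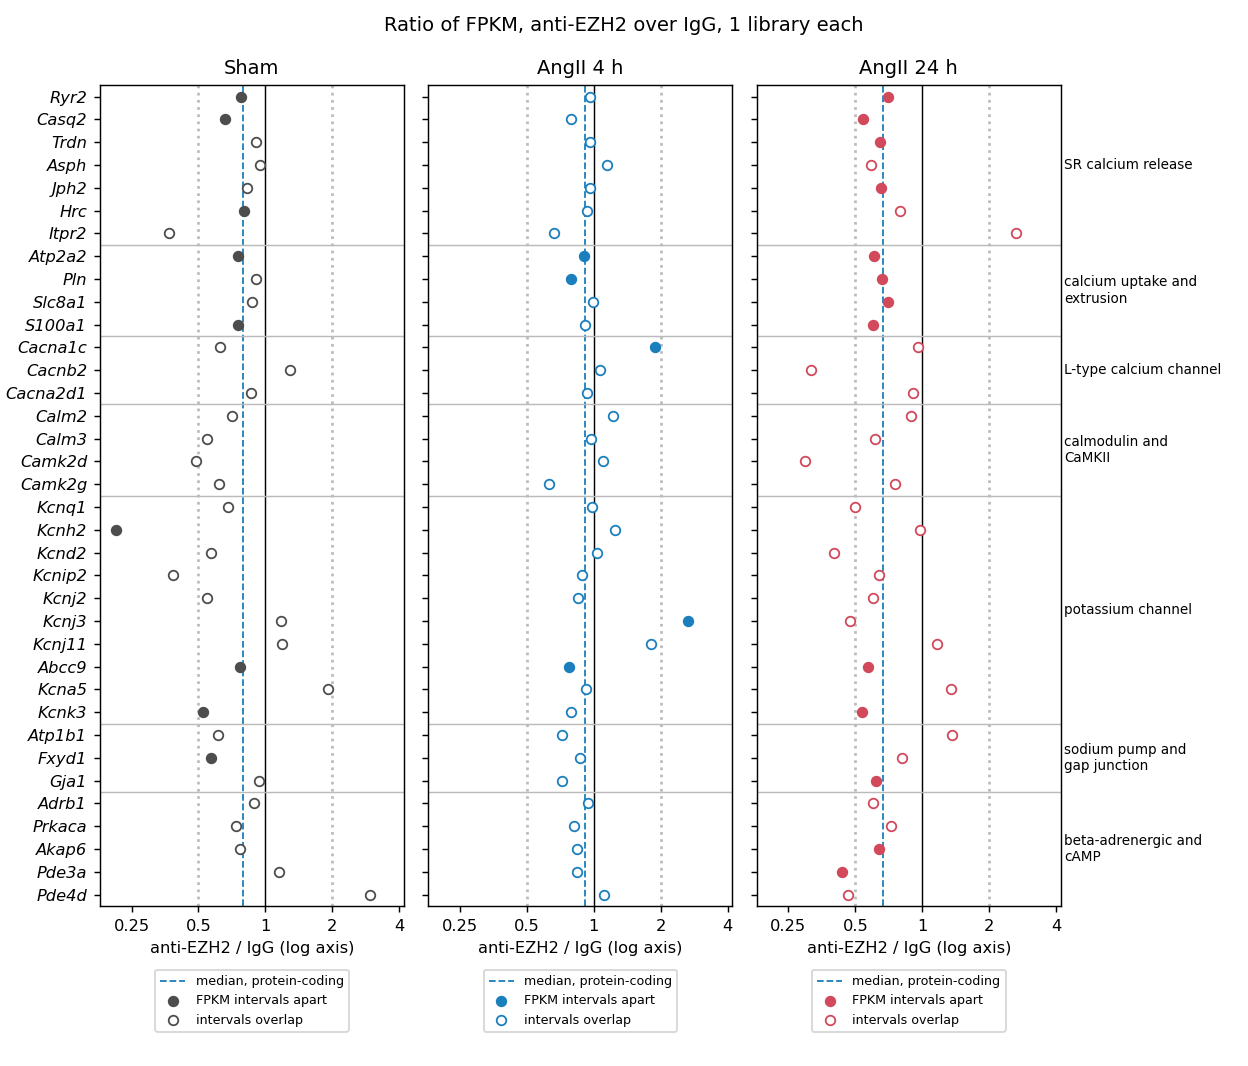
Ratio of FPKM, anti-EZH2 over IgG (x axis, log scale), of 36 members in each group, 1 library a side. Filled points have deposited FPKM intervals that do not overlap, dotted lines mark 2-fold and the dashed line the protein-coding median (0.795, 0.911 and 0.665); the members of calcium uptake sit near the dashed line in each panel, and the potassium channels spread from 0.213 to 2.66.

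The 10 potassium channel genes spread widely, between 0.213 and 1.91 in Sham, between 0.770 and 2.66 after 4 h and between 0.399 and 1.35 after 24 h. Their mean FPKM was between 0.576 (Kcnd2) and 12.7 (Kcnip2), against at least 15.7 (Slc8a1) for the genes of calcium uptake and extrusion. The part of this lower level in the wider spread was not tested. In Sham the ratio was 0.213 for Kcnh2 (the ERG channel of the rapid delayed rectifier) and 0.385 for Kcnip2 (KChIP2, the partner of the transient outward channel), and the deposited FPKM intervals were apart for Kcnh2 and overlapped for Kcnip2. After 4 h the ratio of Kcnj3, a subunit of the acetylcholine-activated channel, was 2.66 with intervals apart, and it was the only member past 2-fold. After 24 h Kcnd2 (0.399), Kcnj3 (0.474) and Kcnq1 (0.497), the last a subunit of the slow delayed rectifier, were past 2-fold lower with overlapping intervals. No potassium channel gene was past 2-fold in the same direction in 2 groups in these values. Relative to the protein-coding median, Kcna5, the channel of the ultrarapid delayed rectifier, was at 2.41 in Sham and 2.03 after 24 h. Kcna5 in the series-wide table was at 2.67 in Sham and 2.03 after 24 h, and Kcnj11 at 2.32 after 4 h and 2.03 after 24 h.

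Camk2d, which encodes the main cardiac calcium/calmodulin-dependent kinase, was the only member past 2-fold in the same direction in 2 groups in the separate tables as deposited. Its FPKM was 15.5, 13.4 and 19.6 with IgG (Sham, AngII 4 h, AngII 24 h) and 7.49, 14.7 and 5.83 with anti-EZH2. The anti-EZH2 values of Sham and AngII 24 h were below all 3 IgG values, and that of AngII 4 h was within their range. The ratio was 0.485, 1.10 and 0.298. Camk2d has 28 annotated transcripts, its deposited intervals overlapped in each group (5.77 to 37.6 against 5.38 to 11.9 in Sham), and the call in Sham was lost relative to the protein-coding median (0.609) and in the series-wide table (0.888). The related Calm2 and Calm3, which encode calmodulin, and Camk2g had ratios between 0.544 and 0.710 in Sham. All 4 of these genes were below the protein-coding median in Sham and 1 of them was after 4 h.

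Among the other roles, the ratio after 24 h was 0.316 for Cacnb2, the beta subunit of the L-type channel, and 0.952 for Cacna1c, its pore-forming subunit. Pde4d, a cAMP phosphodiesterase, had a ratio of 2.97 in Sham and 0.463 after 24 h, and Pde3a, another cAMP phosphodiesterase, one of 0.435 after 24 h. Only for Pde3a were the intervals apart. Prkaca, the catalytic subunit of protein kinase A, and Akap6, its anchor at the nuclear envelope, had ratios between 0.641 and 0.839 in all groups, and Adrb1 between 0.598 and 0.940. The sodium pump subunit Atp1b1, Fxyd1 and Gja1 (connexin 43) were between 0.568 and 1.36.

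The second comparison set AngII against Sham within each antibody, again past 2-fold with no test. In the IgG libraries after 4 h, 1 of 36 members was higher (2.78%, against 17.9% of protein-coding genes) and 1 lower (2.78%, against 10.9%), and after 24 h 3 were higher (8.33%, against 20.6%) and 4 lower (11.1%, against 10.6%). In the anti-EZH2 libraries after 4 h, 6 members were higher (16.7%, against 23.0%) and 0 lower (8.46% of protein-coding genes were). After 24 h, 2 members were higher (5.56%, against 15.2%) and 3 lower (8.33%, against 17.8%). The median member ratio was 1.19 and 1.14 in IgG and 1.44 and 0.991 in anti-EZH2, and that of protein-coding genes was 1.18, 1.20, 1.34 and 0.996. The member medians followed those of protein-coding genes in each of the 4 comparisons, and no share past 2-fold was far above the background. Relative to the protein-coding median, the counts of higher and lower members were 1 and 1 (13.2% and 14.7% of protein-coding genes) and 1 and 5 (14.3% and 15.1%) in IgG after 4 h and 24 h, and 2 and 1 (12.1% and 14.3%) and 2 and 3 (15.3% and 17.8%) in anti-EZH2.

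Casq2 was the only member past 2-fold in the same direction with both antibodies in the separate tables. Its FPKM was 87.4, 92.1 and 41.0 with IgG (Sham, AngII 4 h, AngII 24 h) and 57.2, 73.1 and 22.3 with anti-EZH2. The 2 AngII 24 h libraries held the lowest values and did not overlap with the other 4. The 24 h to Sham ratio was 0.470 and 0.390, and the deposited intervals were apart for both (32.9 to 49.2 against 73.6 to 101 in IgG, 17.2 to 27.5 against 48.2 to 66.2 in anti-EZH2). Relative to the protein-coding median it was 0.391 with each antibody, and in the series-wide table it was 0.393 and 0.610, which is within 2-fold in anti-EZH2. In that table other members were past 2-fold with both antibodies after 24 h, namely Trdn lower (0.422 and 0.471) and Jph2, Hrc (2.67 and 3.98), Kcnq1, Kcnj11, Kcnk3, Fxyd1 and Adrb1 higher. The protein-coding medians there were 1.59 and 1.66. Relative to them, only Jph2 (2.39 and 2.24) and Kcnj11 (2.45 and 2.83) stayed past 2-fold higher with both antibodies. On that scale Casq2 (0.247 and 0.368), Trdn, Pln (0.358 and 0.368), Cacna2d1, Calm2 and Gja1 were past 2-fold lower with both. Casq2 (chr3:102086415-102146514, plus strand, GRCm38) encodes calsequestrin-2, and both libraries came from the same group of 2 mice, in which the atrial marker sums were also lowest (5.69 and 5.36).

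Ryr2, the channel through which the calcium held by calsequestrin-2 leaves the store, had values above Sham after 24 h. Its FPKM was 10.3, 13.5 and 14.4 in IgG and 8.01, 13.0 and 10.1 in anti-EZH2, so that the Sham library was the lowest with each antibody. In the series-wide table Ryr2 was 5.30, 5.03 and 7.32 in IgG, lowest after 4 h, and 5.00, 5.81 and 8.10 in anti-EZH2. Casq2 per Ryr2 in the separate tables was 8.47, 6.82 and 2.85 in IgG and 7.14, 5.63 and 2.22 in anti-EZH2. In the series-wide table it was 10.4, 7.97 and 2.95 in IgG and 8.25, 6.50 and 3.11 in anti-EZH2. The order of the 3 groups was the same with both antibodies and in both forms of the data. Casq2 per Trdn, its anchor at the ryanodine receptor, depended on the form of the data, with 12.6, 11.1 and 5.19 in IgG when the libraries had their own table and 7.68, 6.82 and 7.15 in the table of the whole series.

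**Figure D3:**
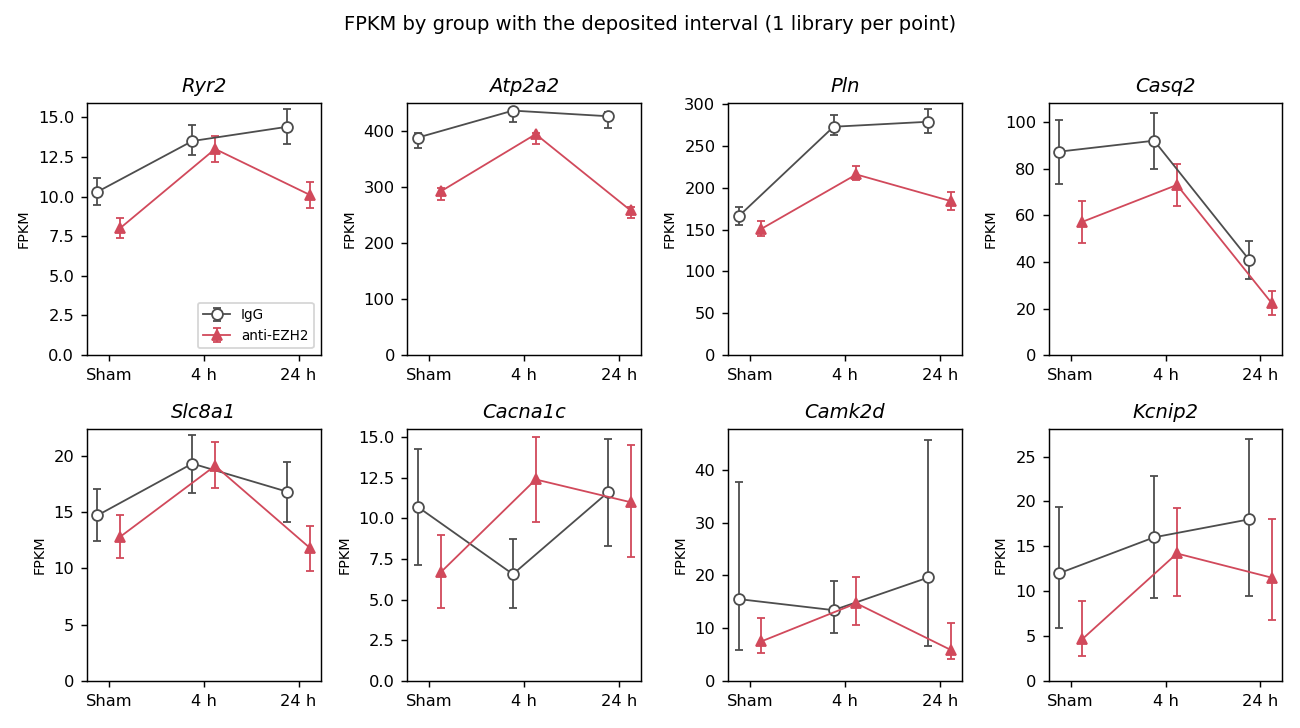
FPKM (y axes, from 0) of 8 members by group, with open circles for IgG, filled triangles for anti-EZH2 and bars for the interval deposited with each FPKM, 1 library per point. Casq2 is lower at 24 h with both antibodies, at 41.0 and 22.3 FPKM, and the bars of Camk2d are wide.

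The uptake genes stayed within 2-fold. Atp2a2 had an FPKM of 388, 436 and 426 in IgG and 292, 394 and 258 in anti-EZH2, and the 24 h value was above Sham with IgG and below it with anti-EZH2. Pln had an FPKM of 166, 273 and 279 in IgG and 151, 216 and 184 in anti-EZH2. Sham was the lowest group for Pln with each antibody, and the intervals of both time points were apart from those of Sham. Pln per Atp2a2, the inhibitor over its pump, was 0.428, 0.627 and 0.655 in IgG and 0.517, 0.548 and 0.716 in anti-EZH2. In the series-wide table the same quantity was 0.982, 1.38 and 0.543 in IgG and 1.02, 1.14 and 0.590 in anti-EZH2, so that the 24 h group was the highest in one form of the data and the lowest in the other. S100a1 was between 0.747 and 1.39 times Sham.

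Slc8a1, the sodium-calcium exchanger, had an FPKM of 14.7, 19.3 and 16.8 in IgG and 12.8, 19.1 and 11.8 in anti-EZH2. In these values it was highest after 4 h with each antibody. In the series-wide table Slc8a1 was 7.81, 7.13 and 9.71 in IgG and 7.87, 8.65 and 10.4 in anti-EZH2, highest after 24 h. Per Atp2a2, Slc8a1 was between 0.0377 and 0.0485 in all 6 libraries, and between 0.0420 and 0.0542 in the series-wide table. Cacna1c had an FPKM of 10.7, 6.57 and 11.6 in IgG and 6.69, 12.4 and 11.0 in anti-EZH2. In these values AngII 4 h was the lowest of the 3 groups for Cacna1c in IgG and the highest in anti-EZH2. The 4 h intervals were apart between the 2 antibodies (4.47 to 8.75 against 9.80 to 15.0). In anti-EZH2 the 4 h interval overlapped that of 24 h (7.61 to 14.5). In the series-wide table Cacna1c was 5.24, 2.18 and 7.98 in IgG and 3.60, 5.13 and 12.9 in anti-EZH2, highest after 24 h. Cacna2d1, the partner of Cacna1c, was between 5.47 and 8.46 FPKM in all libraries. Cacnb2 after 24 h was 0.351 times Sham in anti-EZH2 and 1.43 times in IgG, and the intervals overlapped.

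Potassium channel genes made up 4 of the 6 members past 2-fold higher after 4 h in anti-EZH2, which were Kcnip2 (3.07), Kcnh2 (2.87), Kcnj3 (2.65), Kcnq1 (2.33), Calm3 (2.12) and Adrb1 (2.04). In IgG the ratios of these genes at 4 h were between 0.494 (Kcnh2) and 1.92 (Adrb1). Intervals were apart from Sham for Kcnip2, Kcnj3 and Calm3. Relative to the protein-coding median Kcnip2 (2.30) and Kcnh2 (2.15) alone stayed past 2-fold, and in the series-wide table Kcnq1 (2.03) alone did. Kcnip2, chosen after its values were seen, had an FPKM of 12.0, 16.0 and 18.0 in IgG and 4.63, 14.2 and 11.5 in anti-EZH2, and the Sham anti-EZH2 library held the lowest value. Members past 2-fold at 24 h were Kcnj3 (3.13), Pde4d (2.32) and Pde3a (2.20) higher and Atp1b1 (0.425), Itpr2 (0.427), Kcnh2 (0.431) and Casq2 lower in IgG, and Itpr2 (3.08) and Kcnip2 (2.49) higher and Cacnb2, Pde4d (0.361) and Casq2 lower in anti-EZH2. Apart from Casq2, no gene was in the same list for both antibodies. Kcnj3 is known from atrial and nodal myocytes, and its value after 24 h in IgG was the highest of the IgG libraries while the atrial marker sum was the lowest (5.69). After 4 h in IgG the member past 2-fold higher was Pde4d (3.12) and the one lower was Kcnh2 (0.494), both with overlapping intervals.

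The remaining members are given by their range over the 6 libraries. In the junction between the surface membrane and the sarcoplasmic reticulum, FPKM was between 5.09 and 8.29 for Trdn, between 9.77 and 19.8 for Asph and between 6.57 and 10.8 for Jph2, and for Hrc it was between 42.9 and 58.6. In the separate tables each of these 4 genes was highest in one of the AngII 4 h libraries. The series-wide table did not show this. There Trdn was highest in Sham IgG (7.16), and Asph (9.87), Jph2 (10.3) and Hrc (58.4) in AngII 24 h anti-EZH2. The potassium channel subunit gene Abcc9, which encodes the sulphonylurea receptor SUR2, was between 5.69 and 10.0, and its partner Kcnj11, which encodes the pore of the ATP-sensitive channel, between 3.33 and 7.74. In the separate tables Kcnj11 was the only member above IgG in all 3 groups. Its anti-EZH2/IgG ratios were 1.19, 1.80 and 1.16, with overlapping intervals, and its Sham ratio in the series-wide table was 1.69. In that table other members were also above IgG in all 3 groups. Among them were Kcna5 (2.67, 1.15 and 2.03) and Jph2 (1.12, 1.17 and 1.09). In the separate tables Kcna5 was between 1.01 and 1.93, with ratios of 1.91, 0.925 and 1.35. Kcnk3 was between 6.32 and 15.5 and Kcnq1 between 1.05 and 2.49. The gap junction gene Gja1 was between 9.10 and 18.0 and the sodium pump gene Atp1b1 between 14.0 and 46.4, and the intervals of Atp1b1 were apart between Sham and 24 h in IgG. In the cAMP branch, Prkaca was between 12.2 and 22.9, Akap6 between 1.88 and 3.57 and Adrb1 between 0.536 and 1.16.

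Low members rested on few reads. Kcnd2 and Kcnj2, the latter a subunit of the inward rectifier, have 1 annotated transcript each, and their values corresponded to between 9.0 and 21.9 and between 25.9 and 67.7 fragments per library. There were 11 members that share exonic bases with a gene on the other strand in the annotation. The highest partner was Gm9899, at a mean FPKM of 1.36 beside 11.1 for Kcnk3, and the partners of the other genes that had a value were at 0.895 or less. Whether the authors counted by strand is not given in the sources used here.

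The deposited data come in 2 forms, a separate table for each library (used above) and a table of the whole series. For the members these forms differed with base composition, most of all in the change from Sham to 24 h. The difference between the forms in the log2 change from Sham to 24 h had a Spearman correlation with the GC content of the longest transcript of 0.80 in IgG and 0.88 in anti-EZH2, over 36 members that share the same libraries. The median difference (series-wide table minus separate tables) was 0.59 and 0.42 on the log2 scale for 16 members of at least 50% GC and -0.66 and -0.64 for the 20 others. After 4 h the same medians were between -0.09 and -0.00, and the correlation was 0.35 in IgG and -0.19 in anti-EZH2. For anti-EZH2 over IgG the correlation was 0.57 in Sham, 0.41 after 4 h and 0.10 after 24 h, with medians between -0.08 and 0.09. All these differences are between ratios relative to the protein-coding median of each form. Jph2 (61.8% GC) was 1.15 and 0.916 times Sham after 24 h in the separate tables, whereas the series-wide table gave 3.80 and 3.71 times. Pln was 1.68 and 1.22 times Sham in the first and 0.570 and 0.611 times in the second. Within the series-wide table itself, the log2 change after 24 h had a Spearman correlation with GC content of 0.58 and 0.74 over the members and of 0.33 and 0.35 over all protein-coding genes, and in the separate tables of -0.18 and 0.24 over the members. Casq2 (47.2% GC) was below Sham in both forms.

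**Figure D4:**
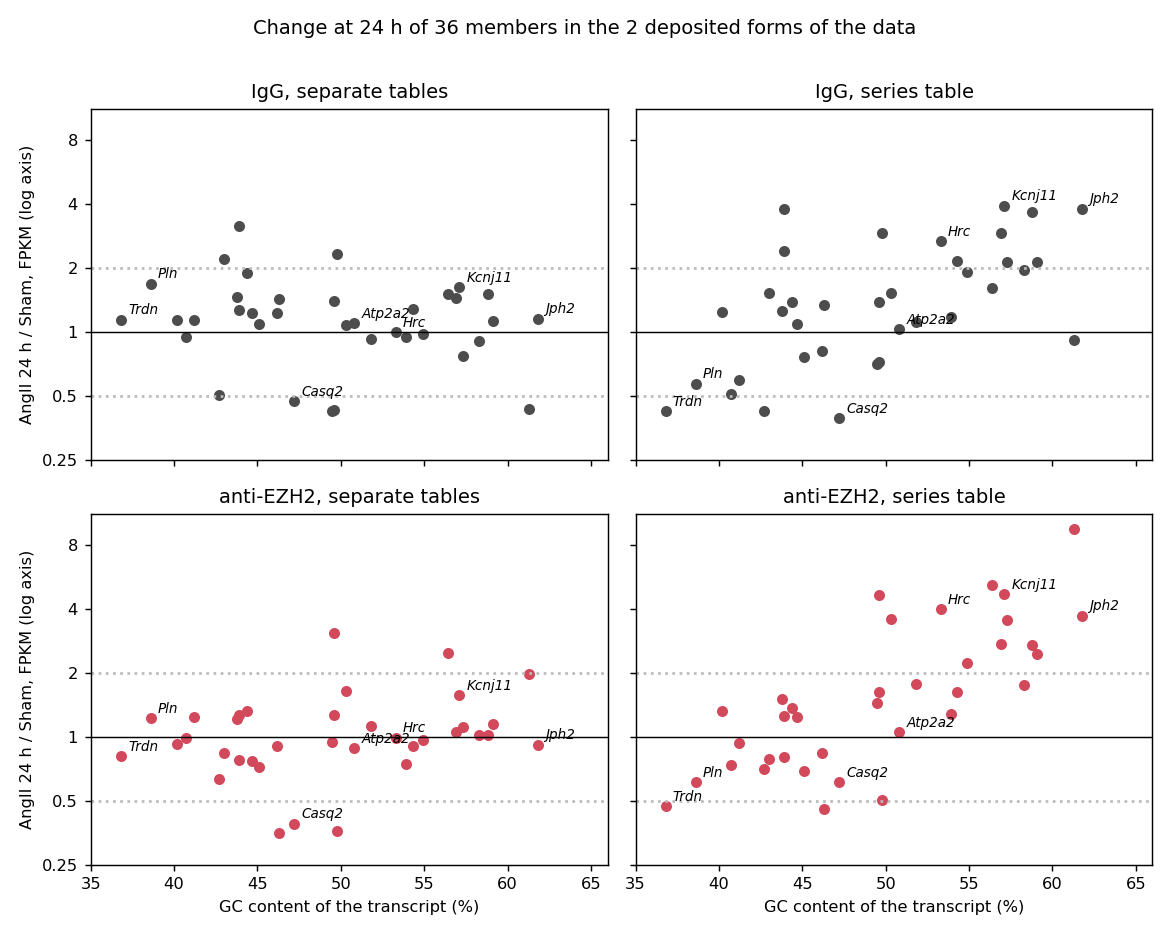
Ratio of FPKM, AngII 24 h over Sham (y axis, log scale), against GC content of the longest transcript (x axis, %) for 36 members, by antibody (panel rows) and form of the data (panel columns). In the series-wide table Jph2 is at 3.80 and 3.71 and Pln at 0.570 and 0.611, whereas in the separate tables both are within 2-fold of Sham.

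The other genes of these pathways were a list of 138 genes without the members, of which 68 had a mean FPKM of at least 1. With anti-EZH2 over IgG, 8 of 68 were past 2-fold higher and 12 lower in Sham (11.8% and 17.6%), 4 and 8 of 67 after 4 h (5.97% and 11.9%) and 4 and 23 of 66 after 24 h (6.06% and 34.8%). The median ratios of 0.766, 0.951 and 0.615 were close to those of the members. For AngII over Sham in IgG, 7 of 68 were higher and 11 lower after 4 h (10.3% and 16.2%, against 17.9% and 10.9% of protein-coding genes) and 12 and 11 of 66 after 24 h (18.2% and 16.7%, against 20.6% and 10.6%). In anti-EZH2, 8 and 10 of 67 were higher and lower after 4 h (11.9% and 14.9%, against 23.0% and 8.46%) and 7 and 22 of 67 after 24 h (10.4% and 32.8%, against 15.2% and 17.8%). Arrb1, a beta-arrestin that acts on adrenergic receptors, was at 4.33, 0.339 and 0.989 in IgG and at 3.27, 0.570 and 1.73 in anti-EZH2. Sham was the highest group for Arrb1 with both antibodies, but the intervals of Sham and 4 h overlapped in each, and Arrb1 was chosen for the size of its change. In limma no gene of this list was called.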

How the data were processed

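RIP-seq of left ventricles gave 6 libraries, 1 anti-EZH2 and 1 IgG library for each of Sham, AngII 4 h and AngII 24 h, grouped by their labels. Library preparation by the authors was with a stranded kit, and TopHat2 was their aligner, run against mm10. FPKM were deposited by the authors in a separate table of each library with an interval for each value, and in a table of the whole series. The program that made the FPKM, its annotation and the level of the intervals are not given in the sources used here, and the intervals hold no spread between mice. FPKM are already scaled by depth and length, so a few abundant RNAs can shift all other values of a library.

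The separate tables were used. Values below 0.001 FPKM (787 of them) were set to 0, and rows of 1 gene identifier were summed (60 identifiers). Of the 46072 genes, 45137 matched GENCODE M21 (GRCm38). Ratios were taken without a pseudocount, and the background was protein-coding genes with a mean FPKM of at least 1. The antibody effect was tested with limma 3.58.1 (R 4.3.3) on log2(FPKM + 0.5), with trend, the group as a block and Benjamini-Hochberg adjustment, after a test on simulated data. Depth was inferred from transcripts of at least 1000 nt with a fragment length of 200 nt, and between 63.1% and 65.5% of low values came out whole within 0.1 reads, too few for a count test.

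The members, pathway lists and markers were chosen with earlier results of these data known. Values in all libraries were given for Ryr2, Atp2a2, Pln, Casq2, Slc8a1 and Cacna1c, for members past 2-fold in the same direction in at least 2 of 3 antibody ratios or with both antibodies at 1 time, and for members with an adjusted p under 0.05 (there were 0). Protein sequences were not used here. A further pathway gene that the rule on named genes covers is not reported here.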

Additional observations from a re-analysis of the deposited data

Results flagged for a closer look

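For 4 members, the ratio was past 2-fold in opposite directions between groups or between antibodies in the separate tables, with 1 library a side. Each such difference was not tested. The anti-EZH2/IgG ratio of Itpr2 was 0.368 in Sham and 2.65 after 24 h, and its 24 h to Sham ratio was 0.427 in IgG and 3.08 in anti-EZH2. Itpr2 had an FPKM of 2.83, 2.11 and 1.21 in IgG and 1.04, 1.39 and 3.21 in anti-EZH2, so that the order of the groups was opposite with the 2 antibodies. All of its deposited intervals overlapped (0.0228 to 4.22 against 0.286 to 6.13 after 24 h).

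The 4 h to Sham ratio of Kcnh2 was 2.87 in anti-EZH2 and 0.494 in IgG. Its FPKM was 7.36, 3.64 and 3.17 in IgG and 1.57, 4.51 and 3.10 in anti-EZH2. In these values the Sham libraries were the highest and the lowest of the 6. In the series-wide table the AngII 24 h anti-EZH2 library was instead the highest for Kcnh2 (6.33, against 1.77 in Sham IgG). There its anti-EZH2/IgG ratio after 24 h was 3.92, and its 24 h to Sham ratio in anti-EZH2 was 9.46. The anti-EZH2/IgG ratio of Kcnj3 was 2.66 after 4 h, with intervals apart, and 0.474 after 24 h, with intervals that overlapped. Its FPKM was 1.09, 1.29 and 3.42 in IgG and 1.29, 3.42 and 1.62 in anti-EZH2. The anti-EZH2/IgG ratio of Pde4d was 2.97 in Sham and 0.463 after 24 h, and its 24 h to Sham ratio was 2.32 in IgG and 0.361 in anti-EZH2, all with overlapping intervals. Pde4d has 20 annotated transcripts and an FPKM between 0.847 and 2.94. Part of these opposed pairs were lost with the processing. After 24 h the anti-EZH2/IgG ratio of Kcnj3 was 0.713 relative to the protein-coding median and 0.865 in the series-wide table, and that of Pde4d was 0.696 and 0.722. In the series-wide table the 4 h to Sham ratio of Kcnh2 was 1.83 in anti-EZH2 and 0.562 in IgG, and the 24 h to Sham ratio of Itpr2 in IgG was 0.717 and that of Pde4d in anti-EZH2 0.507.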

How the results depend on the processing

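The antibody effect in limma called 0 members under every alternative run (pseudocounts of 0.1 and 1, no filter, centring, no block, no trend, the series-wide table with and without centring, and each group left out in turn), and at an unadjusted p under 0.05 there were between 0 and 1 members. Counts past 2-fold moved more, and are given as higher and lower members. Scaled to the protein-coding median, anti-EZH2 over IgG gave 2 and 3 in Sham and 2 and 0 after 4 h. It gave 3 and 2 after 24 h. AngII over Sham gave 1 and 1 in IgG after 4 h and 1 and 5 after 24 h. In anti-EZH2 the counts were 2 and 1 after 4 h and 2 and 3 after 24 h. For anti-EZH2 over IgG, the series-wide table gave 2 and 2 in Sham and 3 and 0 after 4 h. It gave 5 and 2 after 24 h. For AngII over Sham in IgG it gave 1 and 1 after 4 h and 11 and 3 after 24 h. In anti-EZH2 the counts were 1 and 1 after 4 h and 12 and 2 after 24 h. The protein-coding medians of 24 h over Sham in that table were 1.59 and 1.66, above the member medians of 1.35 and 1.40. No share over all protein-coding genes is given for that table. A scaling of that table to its protein-coding median was chosen after seeing the data. With it, anti-EZH2 over IgG gave 2 and 2 in Sham, 3 and 0 after 4 h and 2 and 2 after 24 h. AngII over Sham then gave 1 and 1 in IgG after 4 h and 4 and 9 after 24 h. In anti-EZH2 the counts were 0 and 2 after 4 h and 8 and 10 after 24 h. With the FPKM intervals also apart, anti-EZH2 over IgG left 0 and 1 in Sham and 1 and 0 after 4 h. It left 0 and 1 after 24 h. AngII over Sham left 0 and 0 in IgG after 4 h and 2 and 2 after 24 h. In anti-EZH2 it left 3 and 0 after 4 h and 0 and 1 after 24 h. Among members with a mean FPKM of at least 5, anti-EZH2 over IgG gave 0 and 2 in Sham. It gave 0 and 0 after 4 h and 0 and 1 after 24 h. AngII over Sham gave 0 and 0 in IgG after 4 h and 0 and 2 after 24 h. In anti-EZH2 it gave 2 and 0 after 4 h and 1 and 1 after 24 h. Of 34 single ratios past 2-fold, 22 stayed past it after scaling, 15 in the series-wide table and 16 in that table scaled, where Pde3a at 24 h in IgG turned to 0.953. The cause was not tested. Ratios rest on 1 library a side. Intervals were wide for some members of low FPKM, such as Itpr2, and also for Camk2d at a mean FPKM of 12.7. Those of Akap6, at a mean of 2.59, were narrower (1.54 to 2.24 in Sham anti-EZH2). The libraries of a group were paired in limma by the treatment group as a block, and without that block 0 members were called too. Replicate numbers pair no libraries, since each group has 1 library per antibody.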

Other observations

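Calm3 per Calm2, the ratio of FPKM of a pair of genes that encode the same calmodulin protein, was 1.69, 3.18 and 3.02 in IgG (Sham, AngII 4 h, AngII 24 h) and 1.30, 2.55 and 2.08 in anti-EZH2. In the series-wide table it was 0.843, 1.44 and 3.88 in IgG and 0.844, 1.69 and 2.11 in anti-EZH2. Sham was the lowest group with each antibody and in each form of the data, and the difference has no replicate check.

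Abcc9 and Kcnj11 encode subunits of ATP-sensitive potassium channels. Abcc9 per Kcnj11 was 2.47, 2.18 and 1.86 in IgG and 1.59, 0.937 and 0.912 in anti-EZH2. Each group had a lower value in anti-EZH2 than in IgG, and the same held in the series-wide table (3.98, 3.16 and 0.829 in IgG, and 2.06, 1.26 and 0.369 in anti-EZH2). Kcnj11 had the highest log2 difference of the members in limma, at 0.40 (SE 0.28, unadjusted p = 0.215, adjusted p = 0.677).

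Akap7, an anchor of protein kinase A that is not among the members, had an FPKM of 13.7, 6.48 and 10.0 in IgG and 2.75, 6.86 and 1.15 in anti-EZH2, was chosen for the size of its anti-EZH2/IgG ratio after 24 h (0.115) and had overlapping intervals there.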
